A study of Mus musculus with 9 samples.

Results

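The quiescence genes described here are 8 genes whose products slow or stop cell division: the thioredoxin inhibitor Txnip, the cyclin-dependent kinase (CDK) inhibitors Cdkn1a, Cdkn1b, Cdkn1c, Cdkn2c and Cdkn2d, and the antiproliferative genes Btg1 and Btg2. They were chosen by symbol, with earlier results of these data known. All 8 were found among the 37187 genes of the LSK table and the 45076 genes of the neutrophil table. Transcripts had been measured by RNA-seq in 9 libraries from bone marrow of mice aged 4 to 12 weeks, carrying either the Spop(+/+) genotype (wild type) or the Spop(D/D) genotype (called knockout here, after the library titles). Spop encodes the adaptor through which a cullin-3 ubiquitin ligase binds its substrates, and the study asked whether it restrains inflammatory blood formation through MyD88. LSK cells, the marrow fraction that holds stem cells and multipotent progenitors, gave 2 wild-type and 2 knockout libraries. Ly6G-positive neutrophils gave 2 wild-type and 3 knockout libraries. No source used here gives the deleted part of Spop, the driver of the deletion, or whether each library came from 1 animal.

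Most long-term blood stem cells rest outside the cell cycle, and their daughters begin to divide as they become progenitors. The CIP/KIP inhibitors, p21 (Cdkn1a), p27 (Cdkn1b) and p57 (Cdkn1c), bind cyclin and CDK complexes, and p57 and p27 are known for keeping stem cells at rest. The INK4 inhibitors p18 (Cdkn2c) and p19 (Cdkn2d) bind the G1 kinases CDK4 and CDK6. TXNIP is an alpha-arrestin that binds thioredoxin and limits glucose uptake, and BTG1 and BTG2 recruit the CCR4-NOT deadenylase, which shortens the poly(A) tails of messenger RNAs.

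Libraries held 18827892 to 20264417 counted reads in LSK cells and 21012702 to 27434086 in neutrophils. The second knockout LSK library is entered as neutrophil in its cell type field and as LSK in its title and source name. Ly6g, which defines the neutrophil sort, had 0 reads in all 4 LSK libraries, whereas the stem cell receptor gene Kit stood at 605 to 1049 CPM there (reads scaled to library size by the trimmed mean of M values, TMM). Among the neutrophil libraries the second wild-type library stood apart, with 14991 CPM summed over 10 B cell genes (14.8 to 429 CPM in the others) and 37090 CPM over 11 neutrophil genes (208595 to 644705 CPM in the others). Over 10 erythroid genes the third knockout library had 18511 CPM (3.99 to 3717 CPM in the others). In LSK cells Spop itself gave 380 and 390.1 CPM (wild type) against 312 and 306 CPM (knockout), and in neutrophils its genotypes overlapped. Reads from undeleted exons still count, so that level does not check the labels.

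Promoter sequences of Txnip and the BTG genes were searched for 6 motifs. RefSeq (GRCm38.p6) gave promoter windows for 7 of the 8 genes, and the missing gene was Cdkn1c. The 250 bases before the start of Txnip (plus strand, chr3:96557707-96557956), Btg1 (plus strand, chr10:96616751-96617000) and Btg2 (minus strand, chr1:134079156-134079405) are given 5′ to 3′ because each holds a regulatory motif named next.
Txnip: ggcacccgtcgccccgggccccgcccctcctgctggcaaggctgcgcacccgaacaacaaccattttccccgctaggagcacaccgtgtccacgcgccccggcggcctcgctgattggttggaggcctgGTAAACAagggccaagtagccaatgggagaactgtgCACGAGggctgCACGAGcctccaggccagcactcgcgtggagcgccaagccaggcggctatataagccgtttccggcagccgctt
Btg1: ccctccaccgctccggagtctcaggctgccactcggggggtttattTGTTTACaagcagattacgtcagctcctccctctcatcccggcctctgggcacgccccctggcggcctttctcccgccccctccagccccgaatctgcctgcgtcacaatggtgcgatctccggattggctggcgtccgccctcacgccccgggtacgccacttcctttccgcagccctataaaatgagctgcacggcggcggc
Btg2: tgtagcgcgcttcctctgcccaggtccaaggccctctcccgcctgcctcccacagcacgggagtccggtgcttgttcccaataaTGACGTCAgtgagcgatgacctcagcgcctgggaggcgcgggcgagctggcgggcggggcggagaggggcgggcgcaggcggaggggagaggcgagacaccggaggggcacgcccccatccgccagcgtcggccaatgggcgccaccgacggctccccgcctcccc
Capitals mark 3 motifs, searched on both strands. The forkhead (FOXO) motif GTAAACA lay 121 to 115 bases before the Txnip start and, as its reverse complement TGTTTAC, 204 to 198 bases before the Btg1 start. These letters occur in 3.17% of 32851 windows of the same length and in no other window of the members. Txnip also held a carbohydrate response element (CACGNG repeated after 5 bases, the repeats in capitals), 85 to 69 bases before the start, a motif bound by MondoA (Mlxip) with Mlx. Of all windows 15 held it (0.0457%), and no window of another member, of another alpha-arrestin or of another BTG or TOB gene did. The carbohydrate motif was searched for after the Txnip sequence had been seen, and only in this form. Its rarity and its absence elsewhere therefore concern this pattern, and other forms of the element were not searched. Btg2 held the cyclic AMP response element TGACGTCA 166 to 159 bases before its start, found in 1.55% of windows. The CCAAT box (CCAAT or ATTGG, left in lower case) occurred in all 3 windows printed, and also in those of Cdkn1b and Cdkn2d, against 33.85% of all windows. The E-box CACGTG and the cell cycle motif TTTGAA occurred in no window of the members, against 6.02% and 15.99% of all windows. A match describes letters and shows no binding.

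In knockout LSK cells 6 of the 8 quiescence genes fell and 0 rose (edgeR quasi-likelihood test, adjusted p under 0.05 over 13008 genes). Of all genes tested, 21.2% fell, 21% rose and 42.2% passed in either direction; 49.8% of those calls were rises (39.0% with upper-quartile scaling). The 6 were Txnip, Cdkn1b, Cdkn1c, Cdkn2c, Btg1 and Btg2. Cdkn1a and Cdkn2d did not pass. The median log2 fold change of the 8 genes was -0.95, and that of all genes -0.03. Knockout libraries lay below wild type without overlap at 7 of the 8 genes and above it at 0, against 38.3% and 34.6% of all genes. Because the 8 genes were chosen with earlier results of these data known, their contrast with all genes is a description and no test. In bulk RNA, fewer cells of a kind and less transcript per cell cannot be told apart. Beside these drops, 8 genes of LSK and stem cells summed to 4336 to 4590 CPM with wild-type Spop and to 2586 to 2839 CPM in the knockout libraries. Over 5 granulocyte-monocyte precursor genes the sums were 1571 to 2097 CPM and 16003 to 18792 CPM. Monocyte and macrophage genes summed to 125 to 174 CPM, then 961 to 1435 CPM, and T and NK cell genes to 338 to 405 CPM, then 486 to 519 CPM. Several of these sums mix directions. Of 8 LSK and stem cell genes tested 7 fell and 1 rose, and of 8 monocyte and macrophage genes 4 rose and 3 fell. For T and NK cell genes 2 rose and 2 fell of 8 tested, with a median log2 fold change of -0.34. Lower sums were found for erythroid genes (1098 to 1130 CPM, then 412 to 535 CPM), B cell genes (349 to 350.04 CPM, then 128 to 194 CPM) and megakaryocyte genes (541 to 563 CPM, then 365 to 369 CPM). Of 6 megakaryocyte genes tested 4 fell and 1 rose. Sums of neutrophil genes overlapped (227 to 237 CPM and 228 to 293 CPM), although of 9 tested 2 rose and 2 fell. The highest of these sums was in the first knockout library, where S100a8 was at 55.4 CPM (8.52 to 14.6 CPM in the other LSK libraries). The part of these shifts in the drops was not tested.

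**Figure D1:**
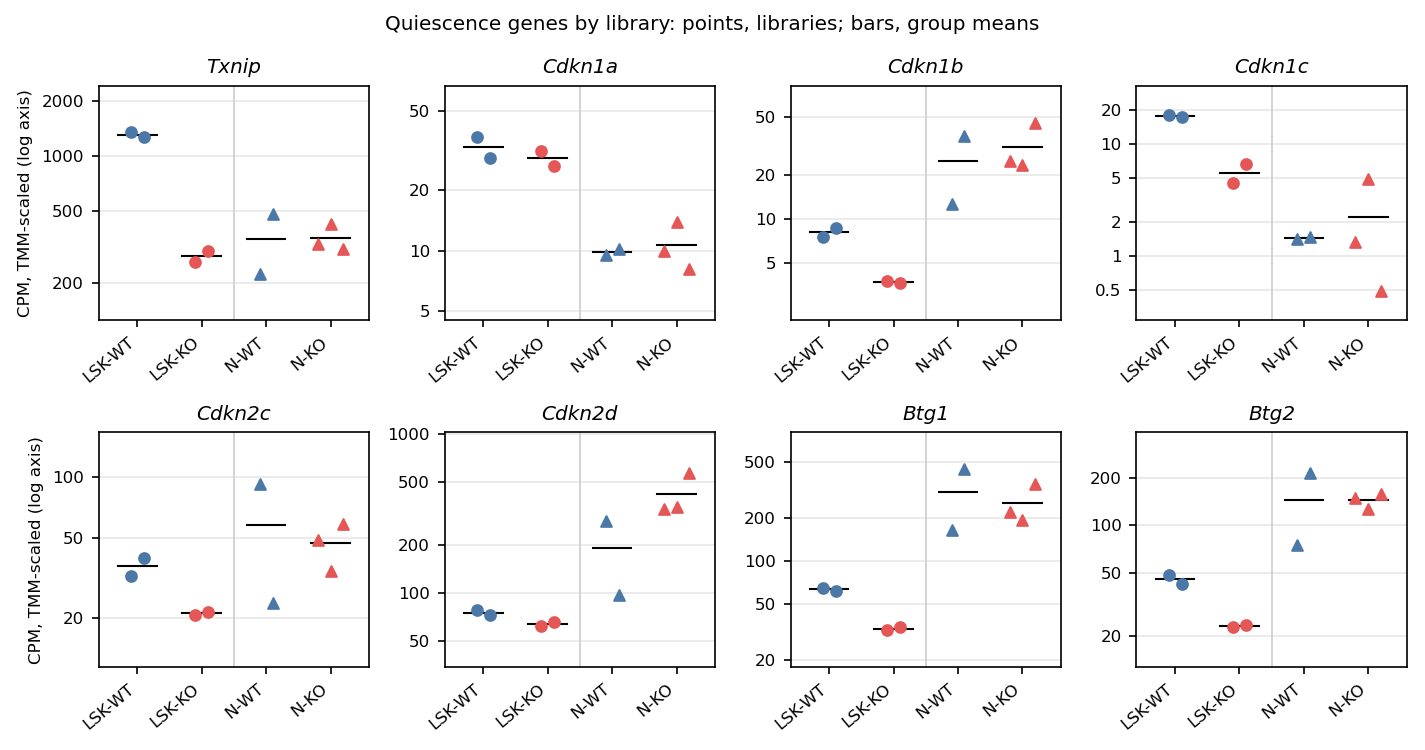
Levels of the 8 quiescence genes in CPM (TMM-scaled, log axis) in each library, with wild type in blue, knockout in red, LSK cells as circles and neutrophils as triangles; bars are group means. In LSK cells the knockout points lie below wild type for every gene but Cdkn1a, while in neutrophils the genotypes overlap for every gene but Cdkn2d; the populations were scaled apart.

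Txnip (ENSMUSG00000038393, chromosome 3, 96557957 to 96561883, plus strand, GRCm38) was the most abundant member in LSK cells and the one that fell furthest. The wild-type libraries read 1349 and 1267 CPM and the knockout libraries 262 and 298 CPM. Both knockout libraries lay far below both wild-type libraries. The drop was 4.67-fold (log2 -2.22, SE 0.104, 95% confidence interval -2.45 to -2.00, adjusted p = 3.30e-08, edgeR). Ordered from the most lowered, Txnip ranked 319 of 13008 genes. In mean wild-type level it ranked 23. The kit keeps no strand, and 19.4% of its exon bases are shared with the opposite-strand gene Gm15441, to which 57 and 57 reads were assigned in wild-type and 2 and 4 in knockout LSK libraries, against 5027 to 27012 reads of Txnip.

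Among the CIP/KIP inhibitors, Cdkn1c and Cdkn1b fell and Cdkn1a did not pass. Cdkn1c, encoding p57 (chromosome 7, 143458339 to 143461050, minus strand), had 18.0 and 17.3 CPM in the wild-type libraries, 4.48 and 6.60 CPM in the knockout ones. The groups stayed well apart, a 3.18-fold drop (log2 -1.67, SE 0.239, interval -2.19 to -1.15, adjusted p = 1.40e-04, edgeR). Of its exon bases 30.7% are shared with the opposite-strand gene Gm44732. Cdkn1b, encoding p27 (chromosome 6, 134920401 to 134925513, plus strand), had 150 and 186 reads in wild type and 73 and 69 in knockout, or 7.61 and 8.73 CPM against 3.81 and 3.67 CPM. That was a 2.18-fold drop (log2 -1.13, SE 0.279, interval -1.73 to -0.52, adjusted p = 0.00601, edgeR), and with the second wild-type library left out it did not pass (adjusted p = 0.0583).

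Cdkn1a, encoding p21, the p53-induced inhibitor (chromosome 17, 29090976 to 29100727, plus strand, 7.68% of its exon bases shared with another gene, AC167363.2), had 36.9 and 29.1 CPM in the wild-type libraries, 31.6 and 26.6 CPM in the knockout ones. One knockout library lay between the wild-type libraries. Its log2 fold change of -0.18 (interval -0.54 to 0.18, adjusted p = 0.402, edgeR) left room for changes of up to 0.54 downward. Without the first wild-type library it was 0.00104.

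The INK4 inhibitors differed in size of change. Cdkn2c, encoding p18 (chromosome 4, 109660876 to 109667189, minus strand), had 32.4 and 39.8 CPM in the wild-type libraries, 20.7 and 21.5 CPM in the knockout ones. It fell 1.71-fold (log2 -0.78, SE 0.161, interval -1.12 to -0.43, adjusted p = 0.00200, edgeR). Cdkn2d, encoding p19 (chromosome 9, 21288410 to 21291407, minus strand), had 78.3 and 72.8 CPM in the wild-type libraries, 62.1 and 65.6 CPM in the knockout ones, without overlap. Its log2 fold change of -0.24 (interval -0.49 to 0.01) did not pass (adjusted p = 0.108, edgeR). Upper-quartile scaling shifted the median over all genes from -0.03 to -0.12 (log2), and with it Cdkn2d was at -0.33 and passed (adjusted p = 0.0325). The other INK4 genes, Cdkn2a and Cdkn2b, lay under the expression filter in both populations.

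Btg1 and Btg2 fell by like amounts. Btg1 (chromosome 10, 96617006 to 96622809, plus strand) had 65.0 and 61.0 CPM in the wild-type libraries, 32.4 and 34.1 CPM in the knockout ones. Its drop was 1.90-fold (log2 -0.92, SE 0.126, interval -1.20 to -0.65, adjusted p = 9.70e-05, edgeR). Btg2 (chromosome 1, 134075170 to 134079120, minus strand), an immediate-early and p53-induced gene, had 48.8 and 42.5 CPM in the wild-type libraries, 22.8 and 23.4 CPM in the knockout ones. Its drop was 1.97-fold (log2 -0.98, SE 0.144, interval -1.29 to -0.67, adjusted p = 1.66e-04, edgeR). The 2 intervals overlap widely, and both lie above that of Txnip.

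In a single fit of all 9 libraries, whose spread includes that of the neutrophils, none of the 6 calls held (adjusted p = 0.304 for Txnip and 0.730 to 0.848 for the others, edgeR). That loss was general: the fit called 0 genes for the LSK effect, against 5494 from the LSK libraries alone. The log2 fold changes in that fit were nearly the same (-2.21 for Txnip, -1.66 to -0.77 for the others).

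**Figure D2:**
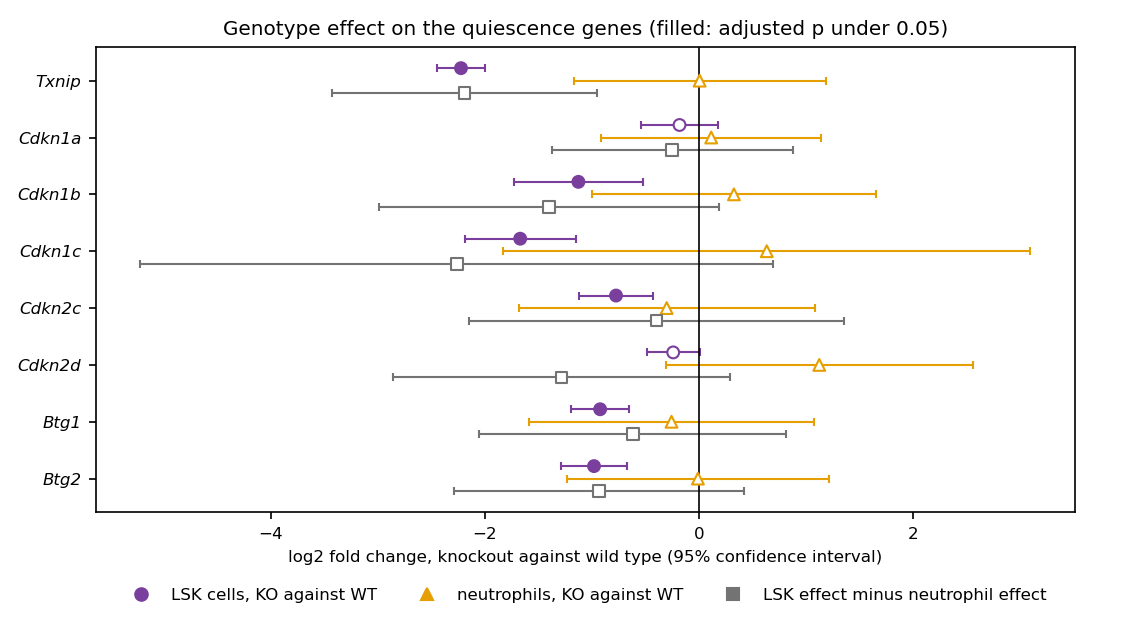
Log2 fold change of knockout against wild type with its 95% confidence interval in LSK cells (circles) and neutrophils (triangles), and the difference of the 2 effects from the fit of all 9 libraries (squares); filled symbols passed an adjusted p of 0.05. Only LSK symbols are filled, for 6 genes, and the neutrophil intervals all span 0.

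In neutrophils none of the 8 genes passed, as did 0 of all 12836 genes tested with edgeR (0%; 1787 genes had an unadjusted p under 0.05, none of them a member, and DESeq2 called 932 genes, no member among them). The libraries of a genotype differed too widely to place a change. The wild-type libraries had 225 and 477 CPM of Txnip, the knockout ones 328, 420.3 and 308 CPM, so that all 3 knockout libraries lay between the wild-type ones. Its log2 fold change was 0.01 with an interval from -1.17 to 1.18 (adjusted p = 0.997, edgeR), and its sign changed with upper-quartile scaling (-0.16).

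Cdkn2d was the exception in separation. Its levels were 285 and 97.0 CPM in the wild-type libraries, 337, 345 and 565 CPM in the knockout ones, all knockout libraries above both wild-type ones, as at 17% of all genes (34.5% were separated in either direction). Its log2 fold change of 1.12 (SE 0.607, interval -0.31 to 2.56) did not pass (adjusted p = 0.460, edgeR). Without the second wild-type library, the one rich in B cell transcripts, it was 0.51, and without the first it was 2.15 (adjusted p = 0.0817, edgeR). Without both libraries that stood apart it was 0.24. The third knockout library, with the highest Cdkn2d level, also had the highest sum of neutrophil genes (644705 CPM), and the second wild-type library had the lowest of both. The part of those levels in the difference was not tested.

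Btg1, Btg2 and Cdkn1b were all higher in the second wild-type neutrophil library than in the first. Btg1 had 166 and 446 CPM in the wild-type libraries, 222, 195 and 351 CPM in the knockout ones. Btg2 was at 74.9 and 216 CPM, then at 149, 127 and 157 CPM. For Cdkn1b the levels were 12.8 and 37.0 CPM, then 25.0, 23.5 and 45.1 CPM. The second wild-type library thus held the highest Btg1, Btg2 and Txnip levels of the 5, next to its 14991 CPM of B cell genes and 1256 CPM over 11 T and NK cell genes (53.5 to 180 CPM in the others). Without that library the log2 fold changes were 0.59 for Btg1 (-0.26 with it), 0.92 for Btg2 (-0.01) and 1.26 for Cdkn1b (0.33), and none passed (adjusted p = 0.711, 0.570 and 0.570, edgeR, with 1 wild-type library assumed to vary like the knockout group).

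Cdkn2c showed the reverse order in wild type, with 91.8 and 23.8 CPM against 48.4, 34.1 and 58.1 CPM in knockout neutrophils. Its extremes fell in the same libraries as those of the summed proliferation markers. The markers were at 2233 and 521 CPM in the wild-type libraries, 1873, 1263 and 1492 CPM in the knockout ones. The first wild-type library was highest and the second lowest in both. Among the knockout libraries the third was highest in Cdkn2c and the first in the markers. The part of proliferation in the Cdkn2c level was not tested. Cdkn1a stayed low, with 9.47 and 10.2 CPM in the wild-type libraries, 9.94, 13.9 and 8.07 CPM in the knockout ones. Cdkn1c had 40 and 49 reads in wild type and 37, 124 and 8 in knockout (0.489 to 4.90 CPM).

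Whether the genotype effect differed between the populations was tested as an interaction over all 9 libraries. No member passed after adjustment over 13792 genes, of which 4 passed (0.029%). Txnip came nearest, its LSK effect lying 2.19 log2 units below its neutrophil effect (SE 0.536, interval -3.42 to -0.95, unadjusted p = 0.00345, adjusted p = 0.178, edgeR). DESeq2 called it (adjusted p = 0.00212), as 1 of 984 genes that it called. The edgeR fits without the first wild-type neutrophil library (difference -1.79) and without both neutrophil libraries that stood apart (-2.90) also called it. Without those 2 libraries, a choice made after the data had been seen, Cdkn1b, Btg1 and Btg2 also passed (differences of -2.00, -1.20 and -1.81). Cdkn2d passed only without the first wild-type neutrophil library (-2.33). Both of these edgeR fits kept a single wild-type neutrophil library, and each called far more genes than the 4 of the main fit. For Cdkn1a, Cdkn1c and Cdkn2c no fit gave a call.

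Levels of different genes were compared per length, as reads per kilobase of merged exons, scaled for library size (RPKM). In wild-type LSK cells the order was Txnip (419 RPKM), Cdkn2d (48.0), Btg2 (16.6), Cdkn2c (13.4), Btg1 (11.9), Cdkn1a (9.29), Cdkn1c (8.65) and Cdkn1b (1.79). Libraries overlapped between Cdkn2c and Btg1 and between Cdkn1a and Cdkn1c. In knockout LSK cells Txnip (89.7 RPKM) and Cdkn2d (40.6) still led. Btg2 (8.43), Cdkn1a (8.18) and Cdkn2c (7.85) followed, the libraries of Cdkn1a overlapping those of the other two and Btg2 lying above Cdkn2c in both, then Btg1 (6.29), Cdkn1c (2.72) and Cdkn1b (0.821). Cdkn1c thus stood beside Cdkn1a in wild type and below it in both knockout libraries (2.20 and 3.24 against 8.89 and 7.47 RPKM).

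Neutrophils had another order, led by Cdkn2d in 4 of the 5 libraries. It had 181 and 61.7 RPKM in the wild-type libraries, 214, 219.5 and 359 RPKM in the knockout ones, while Txnip had 71.9 and 153, then 105, 135 and 98.5 RPKM. In wild type the libraries of these genes overlapped, and those of Btg1 (31.4 and 84.5) and Btg2 (27.3 and 78.8) overlapped with both. The populations were counted and scaled in separate tables, so their levels stand side by side without a test. By mean CPM, Txnip, Cdkn1a and Cdkn1c were highest in wild-type LSK cells, the LSK genotypes overlapping at Cdkn1a. Cdkn1b, Cdkn2c, Cdkn2d, Btg1 and Btg2 were highest in a neutrophil group and lowest in knockout LSK cells. Wild-type and knockout neutrophils overlapped at each of these 5 genes but Cdkn2d. At Cdkn2c the neutrophil libraries (23.8 to 91.8 CPM) also overlapped wild-type LSK cells (32.4 and 39.8 CPM).

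The summed RPKM of the 5 CDK inhibitors was 82.7 and 79.6 in wild-type and 59.1 and 61.2 in knockout LSK cells. Cdkn2d, whose change did not pass, made up most of it: 60.1% and 58.1% in wild type and 66.8% and 68.1% in knockout. The share of Cdkn1c went from 10.7% and 10.6% to 3.72% and 5.29%. Cdkn1a held 12.6% and 10.3%, then 15.0% and 12.2%, with overlap. In neutrophils Cdkn2d alone held 74.9% to 81.8% in wild type and 88.8% to 91.3% in knockout, and Cdkn1c at most 0.986%. Counted in reads with no length correction, Cdkn2d held 45.2% and 43.4% in wild-type and 50.6% and 52.9% in knockout LSK cells.

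**Figure D3:**
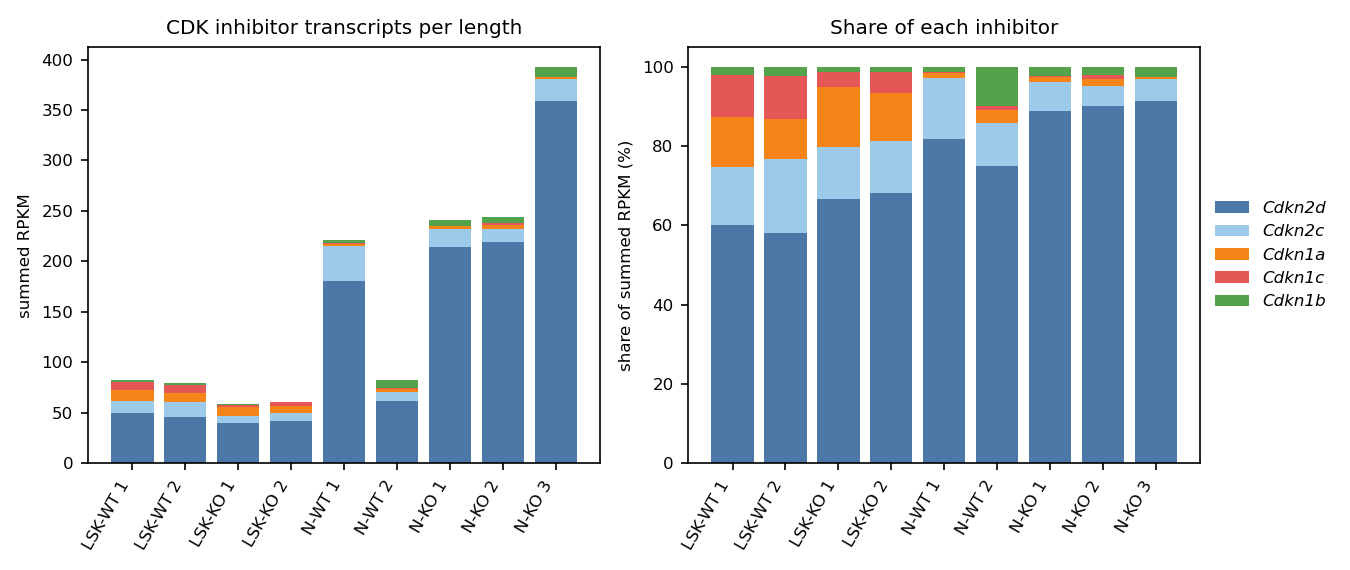
Summed RPKM of the 5 CDK inhibitors in each library (left) and the share of each in that sum in percent (right); each bar is 1 library. Cdkn2d is the largest part of every bar, 58.1% to 68.1% in LSK cells and 74.9% to 91.3% in neutrophils, and the Cdkn1c part is smaller in both knockout LSK libraries.

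Relatives of the members were also read in LSK cells. The counts for each list below stand beside 21.2% of all genes tested that fell and 21% that rose. All 4 of the other alpha-arrestins tested fell (median log2 fold change -0.65). Arrdc4, the closest relative of Txnip in sugar-responsive expression, fell from 108 CPM in wild type to 42.1 CPM (log2 -1.36, SE 0.117, edgeR adjusted p = 3.21e-06), and Arrdc3 from 70.8 to 41.3 CPM (log2 -0.78). Arrdc1 (log2 -0.40) and Arrdc2 (log2 -0.53) passed narrowly, and neither passed without the first or second wild-type or the first knockout library (adjusted p = 0.0724 to 0.169). Arrdc4 held no match to the repeat pattern of the Txnip carbohydrate motif in its 250-base window, and other forms of the element were not searched. Of 3 other BTG and TOB genes tested, Tob1 (32.5 to 18.2 CPM, log2 -0.84) and Tob2 (131 to 104 CPM, log2 -0.33) fell. The call of Tob2 was lost without the second wild-type (adjusted p = 0.341) or the first knockout library (0.0581). Btg3 did not pass, with mean levels of 2.75 (wild type) and 1.94 CPM (knockout).

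The next list joined the Txnip regulators Mlx and Mlxip with 5 thioredoxin and thioredoxin reductase genes. Of these 7 genes, 2 rose and 2 fell (1 rose with upper-quartile scaling, and the median of 0.07 became -0.02). Mlxip, encoding the glucose-sensing factor MondoA, fell from 98.7 to 64.8 CPM (log2 -0.61), and its partner Mlx rose from 53.4 to 81.6 CPM (log2 0.61). With the second wild-type library left out Mlxip did not pass (adjusted p = 0.0558). Thioredoxin itself, Txn1, rose from 229 to 286 CPM (log2 0.32), a call that did not hold under upper-quartile scaling (adjusted p = 0.102) or with the second wild-type library left out (0.321). Txnrd3 (log2 -0.46) was lost without either wild-type or the first knockout library (adjusted p = 0.124 to 0.396).

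Of 9 upstream factors tested, 4 fell and 2 rose. Foxo1 and Foxo3, forkhead factors of resting stem cells, fell from 38.6 to 19.3 CPM (adjusted p = 5.05e-04, edgeR) and from 25.3 to 13.5 CPM (log2 -0.91). Smad3, of TGF-beta signalling, fell from 70.9 to 47.0 CPM (log2 -0.59). Myc, which represses several CDK inhibitor genes, rose from 800.2 to 1070.2 CPM (log2 0.42), a call lost without the first wild-type library. The other rise was that of Trp53, encoding p53, from 254 to 327 CPM (log2 0.37, adjusted p = 0.00794, edgeR).

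Of 12 other p53 target genes tested, relatives of Cdkn1a and Btg2 by regulation, 4 fell and 1 rose. That number of calls is near the share over all genes tested (42.2% in either direction). Trp53inp1 fell from 153 to 50.1 CPM (log2 -1.61), the death gene Bbc3 from 31.8 to 15.8 CPM (adjusted p = 0.00131) and Phlda3 from 13.3 to 7.03 CPM (log2 -0.92, lost without the first wild-type library, adjusted p = 0.110). Pmaip1, encoding NOXA, rose from 3.35 to 34.8 CPM (log2 3.37). Of 13 immediate-early and dissociation genes, a class that includes Btg2 by its regulation, 7 fell and 2 rose. Dusp1 fell from 40.1 to 14.7 CPM (log2 -1.44), Fosl2 from 35.4 to 10.3 CPM (log2 -1.78) and Jund from 64.3 to 36.0 CPM (log2 -0.84). Hspa1b rose from 0.643 to 8.27 CPM. Summed, the 17 genes of the list gave 494 and 533 CPM (wild type) against 367 and 416 CPM (knockout), and their part in the drop of Btg2 was not tested.

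Transcripts of the targets of the inhibitors were tested next. Of 10 cyclins and CDKs of G1 and S phase, 7 rose and 0 fell (5 and 1 with upper-quartile scaling). The genes of cyclin E, whose CDK complexes p21, p27 and p57 restrain, rose: Ccne1 from 14.9 to 41.2 CPM (log2 1.47) and Ccne2 from 75.4 to 162 CPM (log2 1.10). Ccna2 rose from 129 to 283 CPM (log2 1.13) and Cdk1 from 112 to 207 CPM (log2 0.88). Of 16 proliferation markers, 15 rose and 0 fell, and their sums were 3722 and 3617 CPM in the wild-type libraries, 6391 and 6923 CPM in the knockout ones. Rrm2 (log2 1.66), Aurka (1.40), Bub1 (1.31) and Mcm5 (1.06) had the smallest p.

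A list on p27 turnover held subunits and cofactors of ubiquitin ligases and the importin gene Kpna1, which acts in nuclear import: of 8 tested, 3 rose and 0 fell (2 and 0 with upper-quartile scaling). The ubiquitin ligase subunit Skp2 rose from 42.2 to 76.0 CPM (log2 0.85) and its cofactor Cks1b from 111 to 171 CPM (log2 0.63). Kpna1 rose from 145 to 184 CPM (log2 0.34), which was lost without the first wild-type library (adjusted p = 0.164). Cks2 was at 3.92 and 6.55 CPM (adjusted p = 0.0628). Protein was not measured.

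Pocket proteins and their E2F partners, which carry out the arrest that CDK inhibitors impose, were mixed, with 5 of 12 rising and 2 falling (3 and 2 with upper-quartile scaling). Rbl2, encoding p130, the pocket protein of resting cells, fell from 181 to 113 CPM (log2 -0.68), and the E2F partner Tfdp2 from 139 to 87.9 CPM (log2 -0.66). Tfdp1 rose from 159.7 to 254 CPM (log2 0.67) and Lin54 from 42.9 to 63.8 CPM (log2 0.57). Among the activator E2F genes, E2f1 rose from 45.5 to 74.4 CPM (log2 0.71), and E2f2 and E2f3 did not pass. Of 11 genes of the CCR4-NOT deadenylase, the partner of BTG proteins, 2 rose and 1 fell (1 and 1 with upper-quartile scaling), and Cnot3 did not pass (log2 0.30, adjusted p = 0.0868). Cnot9 rose from 98.3 to 152 CPM (log2 0.63), and Cnot7 and Cnot8, which bind BTG proteins, were at 152 and 139 CPM (not passed) and at 211 and 176 CPM (log2 -0.26, adjusted p = 0.0431). Cnot8 lost its call without the first wild-type library (adjusted p = 0.306), without the second (0.106) and without the first knockout library (0.135), and Cnot11 (log2 0.35) without the first wild-type library (0.216). None of these genes passed in neutrophils.

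**Figure D4:**
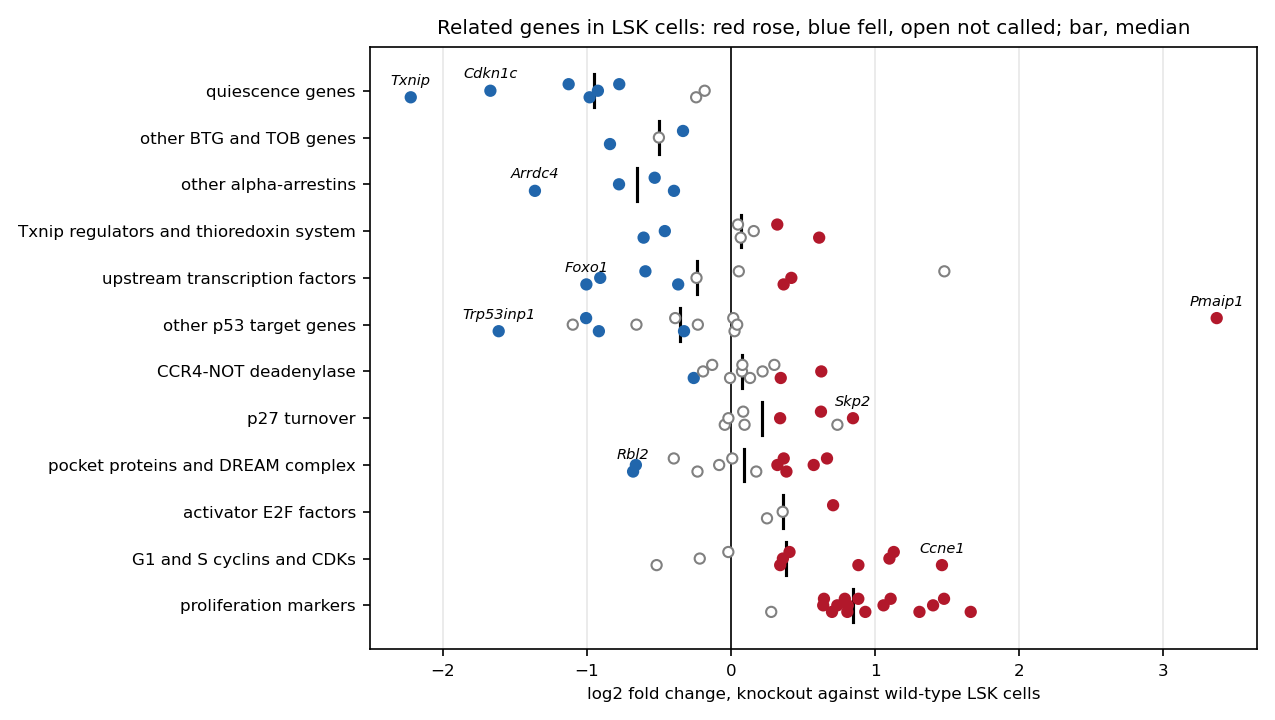
Log2 fold change of each tested gene of 12 lists in knockout against wild-type LSK cells; red points rose, blue points fell, open points did not pass an adjusted p of 0.05, and the bar is the list median. The quiescence genes and other alpha-arrestins lie left of 0, while 15 of 16 proliferation markers are red on the right.

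Genes of like pattern were found by the root mean square difference of log2 CPM over the 9 libraries, centred within each population, among 10839 other genes. Nearest to Txnip were Slc26a11 (0.183 log2 units), Tsc22d3, the glucocorticoid-induced leucine zipper (0.192), and Marcks (0.210). The nearest other member was Btg2, at rank 57 (0.471). Btg1 and Btg2 were near each other, Btg1 ranking 3 for Btg2 and Btg2 ranking 9 for Btg1 (0.196). Cdkn1b lay nearest to 5530601H04Rik (0.146), Zfand6 and Ulk3, with Btg1 at rank 13 (0.241). Cdkn2c and Cdkn2d were each other's nearest member but far apart (0.544, ranks 1579 and 2001). Nearest to Cdkn2d were B3gntl1 (0.128) and S100a11 (0.128), and to Cdkn2c Slc6a13 (0.142). Cdkn1a lay nearest to Ss18 (0.0960) and no member ranked above 5057 for it, while Cdkn1c had no gene closer than Cass4 (0.330). These distances describe the libraries, and for the members other than Txnip mostly the wide differences among neutrophil libraries. Txnip varied more in LSK cells, mostly between genotypes. Its centred log2 CPM was 1.16 and 1.07 in wild-type and -1.21 and -1.02 in knockout LSK cells, against -0.60 to 0.49 in neutrophils.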

How the data were processed

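The kits were RNeasy Micro for RNA and SMART-Seq v4 Ultra Low Input for cDNA, per the labels' protocols. STAR, featureCounts, bcl2fastq and DESeq2 appear in the submitters' processing notes with no version, beside the builds mm10 and GRCm38; no source used here gives the annotation or use of strand. Deposited by the authors were raw read counts per gene, which were tested, and normalized values (unit: signal), equal to the counts divided by 1 factor per library (0.681 to 1.31), which were used only to find and check the members. LSK identifiers (35412 of 37187) were paired with symbols through GENCODE M21 (GRCm38), which also gave lengths and coordinates. The interaction used 35206 genes shared by symbol, including 772 matched by a RefSeq synonym.

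Counts were tested within each population with edgeR 4.0.16 (R 4.3.3): TMM factors, the package's expression filter, a robust quasi-likelihood fit, and Benjamini-Hochberg adjustment over all genes tested. All 8 members passed the filter in both populations. The interaction used all 9 libraries. Scripts were tested on simulated data. Alternatives were other scalings (upper quartile, RLE), DESeq2 1.42.0, other filters (none, or a mean count of 10), no robust option, a replicate block, a shared fit, and leaving out libraries. Groups follow the titles, and no label says that replicates came from separate animals; p-values then reflect only library-to-library spread, possibly technical. No 2 replicates agreed within counting noise (lowest chi-square per gene 9.39). A floor of 3 reads is 0.109 to 0.159 CPM and covers counting error only; without molecular identifiers, reads are not independent molecules.

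The members and gene lists were chosen with earlier results of these data known. Named were Spop, the 8 members, up to 4 genes of smallest LSK p in each list, Ly6g, Kit and S100a8, and the 3 most alike genes of each member. Cnot7 and Trp53 were added for their roles.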

Additional observations from a re-analysis of the deposited data

How the results depend on the processing

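Of 96 alternative values of the members in LSK cells, 87 kept direction and call, 7 lost the call and 1 gained it. The remaining one changed direction: Cdkn1a without the first wild-type library (0.00104; -0.341 without the second). In neutrophils no alternative made a call, and 20 of 112 values changed direction. Txnip was at -0.157 with upper-quartile factors, -0.0263 with RLE factors, -0.0291 with DESeq2, -0.0251 in the fit of all 9 libraries, and between -0.379 and 0.616 when single libraries were left out. Cdkn1a was at -0.0421 with upper-quartile factors and between -0.134 and 0.272 without single libraries. Btg2 was at 0.00444 with no filter, 0.00310 with a mean count of 10 or more, 0.867 without both neutrophil libraries that stood apart, and between -0.524 and 0.916 without single libraries. Btg1 was at 0.315 without both libraries. Leaving out single libraries gave -0.748 to 0.595 for Btg1, -0.194 to 1.26 for Cdkn1b, -1.001 to 1.03 for Cdkn2c, 0.513 to 2.15 for Cdkn2d and -0.643 to 1.10 for Cdkn1c. Without both libraries Cdkn2c was at -1.17, Txnip at 0.718 and Cdkn1a at 0.313. The interaction of Cdkn2c was at 0.423 without both libraries and between -1.75 and 0.187 without single libraries.

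The number of genes called in LSK cells was 5494, 0 in the fit of all 9 libraries, and 3524 to 5718 without single libraries. In neutrophils it was 0 with edgeR, 932 with DESeq2, 334 with no filter, 551 in the fit of all 9 libraries and 0 to 601 without single libraries. For the interaction it was 4, then 984 with DESeq2, 10 with no filter, 1835 without both libraries and 0 to 1403 without single libraries. Upper-quartile scaling lowered the share of higher calls in LSK cells from 49.8% to 39.0%. Among 46 related genes, DESeq2 lost the calls of Tob2, Arrdc2, Txnrd3 and Cnot8, and the fit of all 9 libraries lost 41. The cause of these shifts was not tested.

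The deviations of same-numbered libraries from their group means had a correlation across genes of 0.00393 in LSK cells. In neutrophils it was 0.239 for the first pair and -0.0241 for the second. With 2 libraries in a group the deviations mirror each other, so these values cannot show whether the numbers pair libraries. No label says that they do, and the numbers were not taken to pair libraries. With the replicate block 5776 genes were called in LSK cells, 334 in neutrophils and 0 in the interaction, and Btg2 in neutrophils was at 0.113. The block changed no call of a member. Levels from library totals without TMM factors moved by more than the spread at 12 of 32 group means, and shares of the inhibitors counted in reads at 17 of 20. Cdkn1c in neutrophils, at 8 to 124 reads, is the member limited most by depth.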

Other observations

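Trp53inp1, a p53 and FoxO target outside the quiescence genes, was singled out after its values had been seen. It fell in knockout LSK cells (log2 -1.61) and averaged 240.0 CPM (SD 92.5, n = 3) in knockout against 42.3 CPM (SD 4.12, n = 2) in wild-type neutrophils. That neutrophil difference did not pass (log2 2.50, adjusted p = 0.207, edgeR), nor did the difference between the populations (-4.06, interval -5.28 to -2.84, unadjusted p = 5.76e-05, adjusted p = 0.128). Tob1, a relative of Btg1 and Btg2, fell in LSK cells and averaged 35.1 CPM in wild-type against 70.8 CPM in knockout neutrophils (log2 1.01, adjusted p = 0.442, edgeR).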
